A study of Mus musculus with 16 samples.

Results

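The regions described here were 8176 stretches of accessible chromatin in mouse pancreatic islets that lay between genes and far from any transcription start site (TSS). They were chosen by the peak calls of the 16 samples and by their place in the mm10 genome. Overlapping peaks of the 16 sample lists were merged, and a region was kept if it lay on chromosomes 1 to 19, held a peak of every sample, was narrower than 5 kb, overlapped no gene body of the GENCODE annotation and lay over 10 kb from every annotated TSS. These intergenic regions were 20.0% of the 40940 autosomal regions with a peak in all 16 samples. The autosomes held 347712 merged regions in all. Because a peak in all 16 samples was required, a region that fell below the calling threshold in any sample is not among them. The differences described below are between samples that all had a called peak in the region, which was not always strong or repeated between the sexes. Fewer cells with an open region and less opening per cell cannot be told apart in such bulk samples.

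The islets came from 8 inbred strains, the founders of the Diversity Outbred mice, with 1 female and 1 male sample of each. By the labels they were 129S1_SvImJ (129), A_J (AJ), C57BL/6J (B6), CAST_EiJ (CAST), NOD_ShiLtJ (NOD), NZO_HlLtJ (NZO), PWK_PhJ (PWK) and WSB_EiJ (WSB), and the text of the study counts CAST, PWK and WSB as wild-derived and the other 5 as classical strains. Each sample was made from 50 islets, no treatment or transgene is given in the labels, and the age of the mice is not given there. The assay was ATAC-seq, which tags open DNA with a transposase. The value used is the deposited summit signal of a peak. The 2 sexes were the only replicates of a strain. The lists give no read totals of single samples, so the reads behind each value are unknown here and no counting interval is given.

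Intergenic open regions are often enhancers, which bind transcription factors and act on promoters at a distance, or binding sites of CTCF, a zinc finger protein that sets the borders of chromatin loops. Enhancers tend to be specific to a cell type, whereas promoters of housekeeping genes are open in most tissues. In islets, factors of the forkhead, homeobox, Nkx2-2, Neurod1, Maf and Rfx families bind many such elements near genes of hormone secretion. The nearest gene is used below as a name for a region, and it need not be the gene on which the region acts.

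The reference sequence around the typical summit of the regions on which the results turn is shown here, read from the RefSeq assembly of GRCm38 (mm10), plus strand, 200 bases each. Capitals mark matches on either strand to any of the 13 short motifs that were searched, which are spelled out with the motif results. The regions near N6amt1 and Gm3298 were among those with the smallest p-values for strain, those near Fam50b and Sim1 the smallest for strain class, and the region near Bhlhe40 the least spread over samples. The region near S100a10 was the highest whose window is neither repeated elsewhere in the reference nor marked as repeat, and the region near Vps41 the highest with a CTCF core. Both of these were picked after the values were seen. The last pair were the highest of all the intergenic regions, and both of their windows have near copies elsewhere in the reference.
N6amt1 region, chr16:87318384-87318583: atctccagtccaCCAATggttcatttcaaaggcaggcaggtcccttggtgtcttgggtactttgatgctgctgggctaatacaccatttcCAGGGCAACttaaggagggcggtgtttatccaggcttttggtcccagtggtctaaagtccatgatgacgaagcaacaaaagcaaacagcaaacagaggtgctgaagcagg
Gm3298 region, chr14:5001009-5001208: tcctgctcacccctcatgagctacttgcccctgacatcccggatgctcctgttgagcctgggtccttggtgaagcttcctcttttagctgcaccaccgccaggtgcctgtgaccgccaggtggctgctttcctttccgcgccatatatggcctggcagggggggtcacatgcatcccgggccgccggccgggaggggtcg
Fam50b region, chr13:34762203-34762402: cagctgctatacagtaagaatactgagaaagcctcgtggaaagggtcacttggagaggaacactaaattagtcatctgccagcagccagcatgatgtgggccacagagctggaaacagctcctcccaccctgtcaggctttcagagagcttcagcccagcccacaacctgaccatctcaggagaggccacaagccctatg
Sim1 region, chr10:51048061-51048260: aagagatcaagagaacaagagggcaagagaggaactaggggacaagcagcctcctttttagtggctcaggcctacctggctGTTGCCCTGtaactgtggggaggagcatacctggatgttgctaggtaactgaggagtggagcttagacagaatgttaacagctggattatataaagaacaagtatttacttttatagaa
Bhlhe40 region, chr6:108709987-108710186: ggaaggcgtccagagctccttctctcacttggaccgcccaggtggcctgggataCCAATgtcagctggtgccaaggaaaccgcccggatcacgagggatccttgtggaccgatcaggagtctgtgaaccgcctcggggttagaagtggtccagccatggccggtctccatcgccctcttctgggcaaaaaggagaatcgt
S100a10 region, chr3:93597387-93597586: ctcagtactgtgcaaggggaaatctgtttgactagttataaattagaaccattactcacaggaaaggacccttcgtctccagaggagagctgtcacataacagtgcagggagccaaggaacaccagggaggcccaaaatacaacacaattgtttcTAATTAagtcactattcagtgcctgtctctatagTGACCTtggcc
Vps41 region, chr13:18868289-18868488: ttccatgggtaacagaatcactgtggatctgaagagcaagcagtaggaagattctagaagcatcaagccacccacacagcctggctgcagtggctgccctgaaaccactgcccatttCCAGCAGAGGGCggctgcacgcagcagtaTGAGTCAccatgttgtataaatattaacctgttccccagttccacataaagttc
Galc region, chr12:97061454-97061653: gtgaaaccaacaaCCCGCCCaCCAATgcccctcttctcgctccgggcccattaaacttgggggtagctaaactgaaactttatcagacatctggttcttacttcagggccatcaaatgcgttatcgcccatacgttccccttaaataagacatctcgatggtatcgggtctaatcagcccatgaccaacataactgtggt
Rab10 region, chr12:3109876-3110075: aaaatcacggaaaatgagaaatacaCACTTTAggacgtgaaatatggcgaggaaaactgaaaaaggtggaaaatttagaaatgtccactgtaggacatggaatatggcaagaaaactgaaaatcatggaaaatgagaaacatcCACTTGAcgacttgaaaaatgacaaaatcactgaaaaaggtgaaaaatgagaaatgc
The first 200 bases, near N6amt1, hold a CCAAT box and an Rfx site. The window near Vps41 holds the CTCF core followed by an AP-1 site, and the windows near Gm3298 and Fam50b hold none of the 13 motifs.

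Between 80509 peaks (AJ male) and 173772 peaks (WSB female) were listed per sample, and the median summit signal over the 42427 shared regions, chromosome X included, was between 32.0 (PWK male) and 136 (CAST male). The islet label was checked on the promoters of marker genes. Promoters of 13 of 15 beta cell genes and of 16 of 20 genes of other endocrine cells had a peak in all 16 samples, with Sst in 1 sample and Ppy in 0. The lists of other cells gave 1 of 10 acinar genes, 1 of 5 duct genes, 0 of 6 endothelial and stromal genes and 0 of 7 leukocyte genes with a peak in every sample. Ptf1a, Ctrb1, Pnlip, Cel, Pdgfrb and Cd3e had no promoter peak in any sample. The acinar gene Bhlha15 and the duct gene Cftr had one in all 16, Spp1 (duct) and Cd68 (leukocyte) in 15, Ptprc (leukocyte) in 14, Col1a1 (stromal) in 9, Rbpjl (acinar) in 8 and Csf1r (leukocyte) in 7. The part of other cells in the results below was not tested.

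Intergenic regions had a lower median level than promoters in every sample. Values were compared as centred levels, that is log2(summit signal + 1) minus the sample's median over all shared regions. The median centred level of the intergenic regions ran from −0.52 in the NZO male to −0.07 in the B6 male. Gene-body regions over 10 kb from a TSS, 8306 in number, had medians from −0.49 to −0.20, and the 12836 promoter regions, within 1 kb of a TSS, had medians from 0.44 to 1.09. The ranges of intergenic and gene-body regions overlapped, and that of the promoters lay apart from both. The value of a region was its highest summit, and promoter regions were wider. Median widths were 893.5 bases in intergenic regions, 966 in gene-body regions and 1714 in promoters. The part of width in these levels, and in the strain differences below, was not tested. Within NZO, the female stood at −0.21 and the male at −0.52, the widest gap of any strain. The plot of level by genomic place shows the same medians with the spread over regions.

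**Figure D1:**
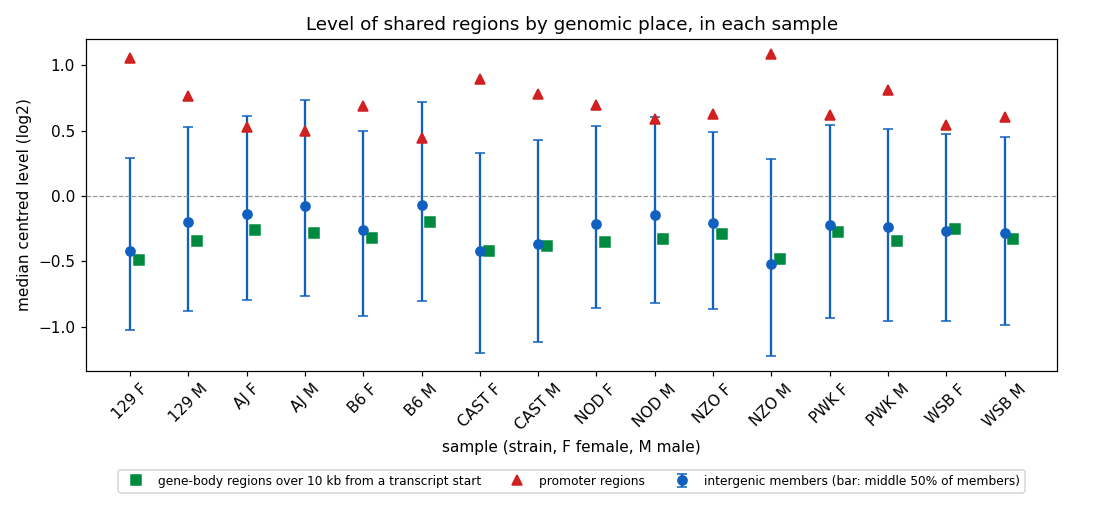
Median centred level (log2, y axis) of the intergenic regions, gene-body regions and promoters in each of the 16 samples (x axis), with bars for the middle 50% of the intergenic regions. The intergenic medians sit between −0.52 and −0.07 and the promoter medians between 0.44 and 1.09, so the promoters are above in every sample.

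The level of the intergenic regions was not even. Printed values from here on are scaled signals, which are the summit signal divided by the sample's median over the shared regions, so that 1 is a typical shared region. Near S100a10, which codes for an annexin-binding protein, chr3:93595806-93598681 had scaled signals from 7.34 to 19.1 with a median of 12.9 over the 16 samples. Near Tbl1xr1, a subunit of nuclear corepressor complexes, chr3:21934829-21936868 ran from 7.67 to 16.7 with a median of 11.0. Near Cobl, an actin nucleator, chr11:12532027-12533199 ran from 4.72 to 16.3 with a median of 10.1. In these 3 regions every sample was several times above the typical shared region, and they were chosen after the values were seen as the highest with windows of that kind, neither repeated nor marked as repeat.

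Many of the intergenic regions differed between strains. In a limma fit of strain and sex, 3403 of the 8176 intergenic regions (41.6%) were called for strain at a Benjamini-Hochberg adjusted p-value under 0.05, taken over all 42427 shared regions, of which 34.9% were called. Gene-body regions over 10 kb from a TSS were called in 41.0% of cases and promoters in 25.5%. The distance between the highest and the lowest strain mean had a median of 1.22 on the log2 scale, or 2.32-fold, in intergenic regions, against 1.21 in gene-body regions, 0.97 in promoters and 1.10 in all shared regions. In 1023 intergenic regions the strain means differed by over 4-fold, and 976 of these were called. The share called in intergenic regions was thus above that of all shared regions and close to that of gene-body regions, and no test of these differences between region classes was made.

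The count of regions called for strain moved when single samples were left out. It was 1767 without the CAST female, 1772 without the CAST male, 2148 without the WSB male, 2210 without the WSB female and 2263 without the NOD male, and it was 5422 without the NZO female. The spread within strains differed, with median absolute differences between female and male of 0.19 (log2) in WSB, 0.21 in CAST and 0.23 in NOD, and of 0.51 in NZO, 0.44 in PWK and 0.40 in 129. AJ and B6 lay between, at 0.32 and 0.37.

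The region with the smallest p-value for strain lay 35.2 kb from N6amt1, which codes for a methyltransferase of a translation release factor. At chr16:87317994-87318968 the female and male scaled signals were 2.60 and 3.42 in 129, 8.92 and 9.87 in AJ, 2.54 and 3.10 in B6, 0.190 and 0.228 in CAST, 4.53 and 5.90 in NOD, 4.68 and 3.47 in NZO, 2.63 and 3.22 in PWK and 0.613 and 0.841 in WSB. Both AJ samples were above, and both CAST samples below, every sample of the other strains, with WSB next lowest. The strain means spanned 5.43 on the log2 scale, the widest span of any intergenic region (limma F test, adjusted p = 1.23e-06). AJ was 2.32 ± 0.19 (log2, SE) above the mean of the other 7 strains (limma, adjusted p = 1.24e-04), and CAST was lower by the widest margin, −3.88 ± 0.19 (limma, adjusted p = 1.18e-07).

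Another pattern stood near Eva1a, where CAST and PWK were both low. At chr6:82124777-82125739 the female and male scaled signals were 1.78 and 2.20 in 129, 4.91 and 2.65 in AJ, 2.80 and 5.27 in B6, 0.248 and 0.257 in CAST, 3.29 and 3.46 in NOD, 1.04 and 1.13 in NZO, 0.452 and 0.375 in PWK and 5.61 and 5.55 in WSB. CAST was lowest, PWK was next and NZO followed, and the samples of these 3 strains did not overlap those of the others (limma F test, adjusted p = 1.08e-05). PWK was thus low with CAST here, and lay among the other strains near N6amt1.

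Of the 10 regions with the smallest p-values, 4 had windows repeated in the reference, meaning that at least 50% of the 50-base words of the window occur elsewhere. Near Gm3298, chr14:5000081-5002191 gave 4.90 and 6.78 in PWK, 3.21 and 3.30 in 129, and 0.343 and 0.338 in CAST. Near Gm11007, chr2:175605000-175606631 gave 12.0 in both PWK samples, 9.21 and 9.07 in NOD, and from 1.01 to 3.21 elsewhere. Near Tmem68, chr4:3493487-3494686 gave 2.95 and 2.97 in PWK and from 0.151 to 1.40 elsewhere. Near Mrgprb5, chr7:48131434-48132800 gave 0.362 and 0.456 in CAST and from 2.33 to 5.31 elsewhere. In these regions 1 or more strains stood apart as they did in the unrepeated ones, and whether the number of copies differs between strains was not tested.

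**Figure D2:**
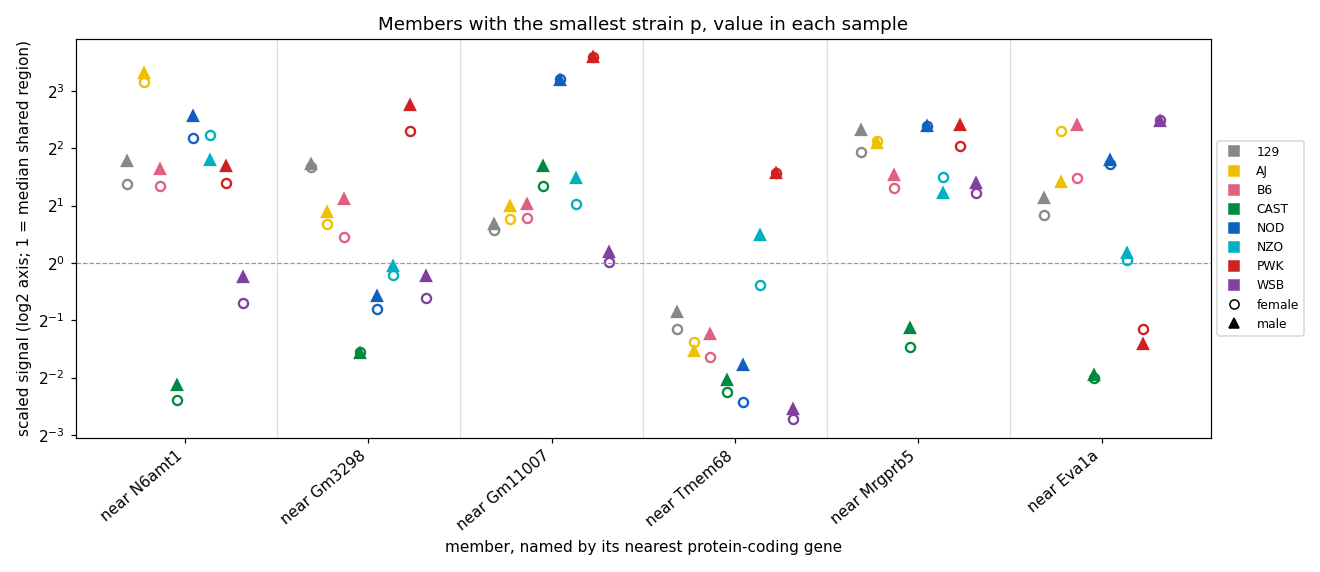
Scaled signal (log2 axis, 1 is the median shared region) of 6 of the 10 intergenic regions with the smallest strain p-values, named by nearest gene on the x axis, with 1 point for each of the 16 samples, coloured by strain and shaped by sex. Both samples of a strain lie close together in most regions, which the choice by small strain p-values favours. CAST is the lowest strain near N6amt1, Gm3298, Mrgprb5 and Eva1a.

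Each strain was set against the mean of the other 7 in the same fit, with a median SE of 0.24 on the log2 scale. CAST had the most calls, with 506 intergenic regions higher (6.79% of all shared regions were called in that direction) and 1519 lower (13.4%), a majority that turned with no centring. The CAST-lower calls were 18.6% of the intergenic regions, and CAST had the lowest mean in 1235 of the 3403 regions called for strain (36.3%, against 30.1% of all shared regions called). PWK had 514 higher (5.16% of all shared regions) and 532 lower (5.69%). AJ had 434 higher (3.58%) and 171 lower (3.01%), a majority that turned with no centring and with centring on the intergenic regions, and AJ had the highest mean in 791 of the regions called for strain (23.2%, against 17.5% of all shared regions called).

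The other 5 strains had fewer calls. WSB had 183 higher (2.56% of all shared regions) and 333 lower (3.08%), and NZO had 194 higher (2.22%) and 300 lower (2.83%). B6 had 173 higher (1.37%) and 100 lower (1.59%), and NOD had 140 higher (1.64%) and 80 lower (1.32%). For 129 there were 67 higher (0.957%) and 188 lower (2.01%). In all, 3538 intergenic regions (43.3%, against 36.7% of all shared regions) were called in at least 1 of the 8 contrasts, which share their samples. Those called in 2 or more were 1255 (15.3%, against 13.2%), and 4638 (56.7%, against 63.3%) were called in none.

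The split into higher and lower calls rested on how the samples were scaled. Centred on the median of the intergenic regions themselves, which moved the samples by 0.07 to 0.52 (log2), AJ had 174 higher and 218 lower, NOD 87 and 94, NZO 242 and 187, and CAST 755 and 1140. AJ, NOD and NZO thus changed to the other majority, and CAST kept the lower one. With no centring, where the sample medians spread over 5.04 (PWK male) to 7.10 (CAST male) on the log2 scale, CAST had 2912 higher and 257 lower, PWK 40 and 3940, AJ 16 and 295, and WSB 219 and 57. There B6 had 12 and 2, 129 had 2 and 25, NOD 20 and 7 and NZO 9 and 9.

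**Figure D3:**
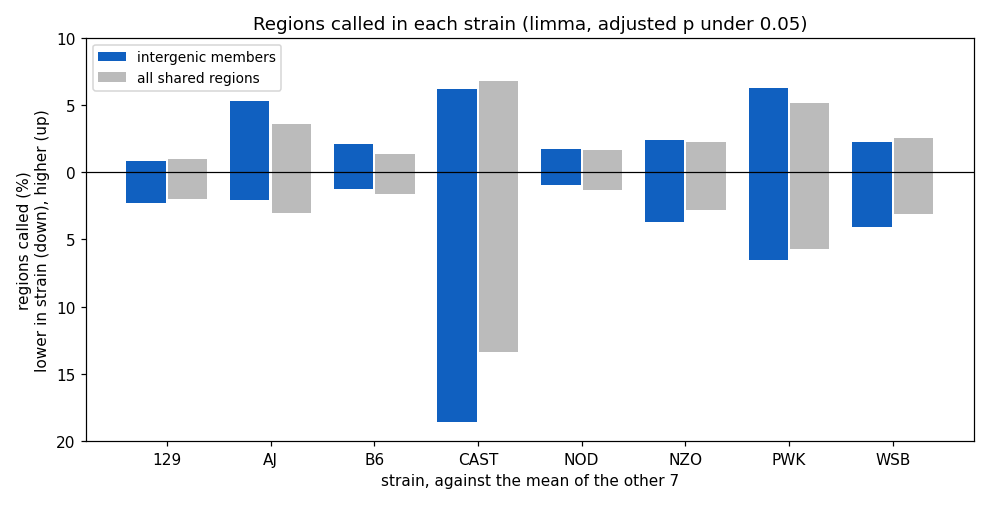
Percent of the 8176 intergenic regions and of all 42427 shared regions (y axis) called higher (up) or lower (down) in each strain (x axis) against the mean of the other 7 (limma, adjusted p under 0.05). The CAST-lower bar is the longest for both sets, at 18.6% of intergenic regions and 13.4% of all shared regions, a direction that turned with no centring.

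The region with the smallest p-value of a contrast often had both samples of the strain beyond all others, which the choice by that p-value favours. Near Megf9, chr4:70841269-70841884 gave 1.43 and 1.71 in the 129 female and male and at most 0.382 elsewhere, a difference of 2.49 ± 0.23 (log2, SE; limma, adjusted p = 3.02e-04). Near Cd47, which codes for a surface protein that inhibits phagocytosis, chr16:50075499-50076111 gave 0.241 and 0.159 in 129 and from 0.273 to 3.81 elsewhere, the highest being PWK with 3.81 and 3.06. Near S1pr1, a receptor for sphingosine 1-phosphate, chr3:115758008-115759196 gave 0.446 and 0.491 in AJ and from 0.840 to 5.97 elsewhere (−2.79 ± 0.21). The AJ samples were the lowest there, and NZO, at 0.840 and 1.02, came next. Without the 129 female, the 129 contrast near Cd47 no longer passed the test.

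B6 is the strain of the reference genome, and its strongest lower call was a repeated region. Near Insr, the insulin receptor gene, chr8:3068230-3069503 gave 0.119 and 0.145 in B6 and from 0.283 to 1.44 elsewhere, and all of its window words occur elsewhere in the reference. Near Cldn10, a tight junction protein, chr14:118750481-118751909 gave 4.63 and 5.41 in CAST and from 0.50 to 2.06 elsewhere (2.05 ± 0.20). Near Klrb1c, a receptor of natural killer cells, chr6:128762866-128765461 gave 2.14 and 2.73 in NOD and from 5.18 to 15.6 elsewhere (−2.10 ± 0.16). The CAST and NOD samples did not overlap the others in these regions.

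Near Arrdc4, an arrestin-domain protein, chr7:68930345-68931463 gave 0.339 and 0.438 in PWK and from 1.79 to 5.28 elsewhere (−2.81 ± 0.18). Near Fat1, a giant cadherin, chr8:44765121-44767638 gave 4.24 and 4.43 in WSB and from 0.844 to 1.69 elsewhere (1.86 ± 0.19). Near Gm6482, chr14:41423600-41428080 gave 0.296 and 0.200 in NZO, and the CAST female, at 0.286, lay between these values. The CAST male (0.360) and both WSB samples (0.330 and 0.352) lay just above them. A low strain was likewise not alone near Dusp6, a phosphatase of MAP kinases, where chr10:99511616-99512379 gave 0.283 and 0.341 in WSB and 0.209 and 0.354 in NOD.

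Some regions hardly varied. The smallest SD over the 16 samples, 0.12 on the log2 scale, was near Bhlhe40, a helix-loop-helix repressor of the circadian clock, where chr6:108708746-108710999 had scaled signals from 2.71 to 3.75 with a median of 3.20. The next were near Mis18a, a centromere protein (chr16:90709265-90710553, 1.64 to 2.23), and near Ncoa2, a nuclear receptor coactivator (chr1:13425607-13427465, 1.72 to 2.45). Near Trim27, a ubiquitin ligase, chr13:21233216-21234995 ran from 1.84 to 3.03, and near Irf2bpl chr12:86831990-86834779 ran from 4.47 to 6.22. All 5 were above the typical shared region in every sample, had peaks that repeated between the sexes in all 8 strains, and lay 16.6 to 51.5 kb from the gene named.

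To ask whether wild-derived and classical strains differed, limma was run on the 8 strain means, with wild-derived minus classical as the contrast. In the intergenic regions, 2 were higher in wild-derived strains (0.00707% of all shared regions were called so) and 1 was lower (0.0259%). Near Fam50b, chr13:34761774-34762574 ran from 0.273 to 1.00 with a median of 0.494 over the 10 classical samples and from 1.22 to 2.79 with a median of 1.90 over the 6 wild-derived samples. Near Nectin1, a cell adhesion molecule, chr9:43708491-43709480 ran from 0.308 to 0.879 with a median of 0.474 in classical and from 1.47 to 2.29 with a median of 1.79 in wild-derived samples. Near Sim1, a transcription factor of hypothalamic neurons, chr10:51048000-51048696 ran from 1.09 to 2.11 with a median of 1.23 in classical and from 0.162 to 0.453 with a median of 0.349 in wild-derived samples. The 2 classes did not overlap in any of these 3 regions.

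The class difference was 1.87 ± 0.21 (log2, SE, limma, adjusted p = 0.0127) near Fam50b, 1.81 ± 0.25 (limma, adjusted p = 0.0367) near Nectin1 and −2.10 ± 0.27 (limma, adjusted p = 0.0302) near Sim1. A two-sided exact permutation test over the 56 splits of the strains must give its smallest p-value, 0.0179, wherever the strain means of the classes lie apart, as they do in these 3, so it adds no support. At an unadjusted p-value under 0.05, 391 of the intergenic regions (4.78%) were higher and 844 (10.3%) lower, against 5.14% and 7.09% of all shared regions. The calls were few and rested on single samples. Without the NZO female all 3 calls were lost, and without the PWK female both higher calls were. Leaving out the male of 129 ended the calls near Sim1 and Nectin1, and leaving out the AJ or the B6 male ended the call near Nectin1. The number of lower calls was 2 without the NZO, PWK or WSB male.

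No intergenic region was called for sex. With strain in the limma model, 0 were higher in females (0.00943% of all shared regions were called so) and 0 lower (0%), and the smallest adjusted p-value was 0.617. At an unadjusted p-value under 0.05 there were 157 higher (1.92%, against 1.95% of all shared regions) and 269 lower (3.29%, against 2.12%). The female-minus-male difference had a median of −0.03 (log2), with its 10th and 90th percentiles at −0.24 and 0.19. With 8 samples of each sex, smaller differences may not have been detectable. A peak in every female and every male sample was required, so regions open in only females or only males were left out beforehand. The shares of all shared regions include chromosome X, and the intergenic regions do not. The study states that its own low count of sex effects came largely from using both sexes to define consistent peaks.

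Calls for strain were not spread evenly over the chromosomes. On chromosome 19, 80 of 102 intergenic regions (78.4%) were called for strain, whereas the other chromosomes ranged from 35.4% on chromosome 9 to 53.6% on chromosome 11 and 52.5% on chromosome 18. Relative to all intergenic regions of a sample, the median level on chromosome 19 was −0.46 and −0.61 (log2) in the 129 female and male and −0.74 and −0.83 in B6. It was 0.38 and 0.32 in AJ, 0.41 and 0.40 in CAST, and from −0.14 to 0.33 in the others. Both 129 and both B6 samples were below every other sample. Shared promoters of chromosome 19 were called in 60.9% of cases and gene-body regions in 75.5%, so the shift was not found in intergenic regions alone. Whether the signal was made chromosome by chromosome is not given in the sources used here, and a difference in the openness of these regions and a difference in signal along the whole chromosome cannot be told apart.

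Smaller shifts of the same kind stood on chromosomes 11 and 18. On chromosome 11 the PWK median was −0.58 in the female and −0.76 in the male, and 80 of its 192 intergenic regions were called lower in PWK. On chromosome 18 the AJ medians were −0.42 and −0.30 and the CAST medians −0.37 and −0.39, and 115 of its 318 regions were called lower in CAST. When samples were centred within each chromosome, an alternative added after the values were seen, chromosome 19 had 37 regions called (36.3%), chromosome 11 had 79 (41.1%) and chromosome 18 had 126 (39.6%). The total was then 3151. Outside chromosome 19, 3323 of 8074 regions (41.2%) were called without that centring.

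**Figure D4:**
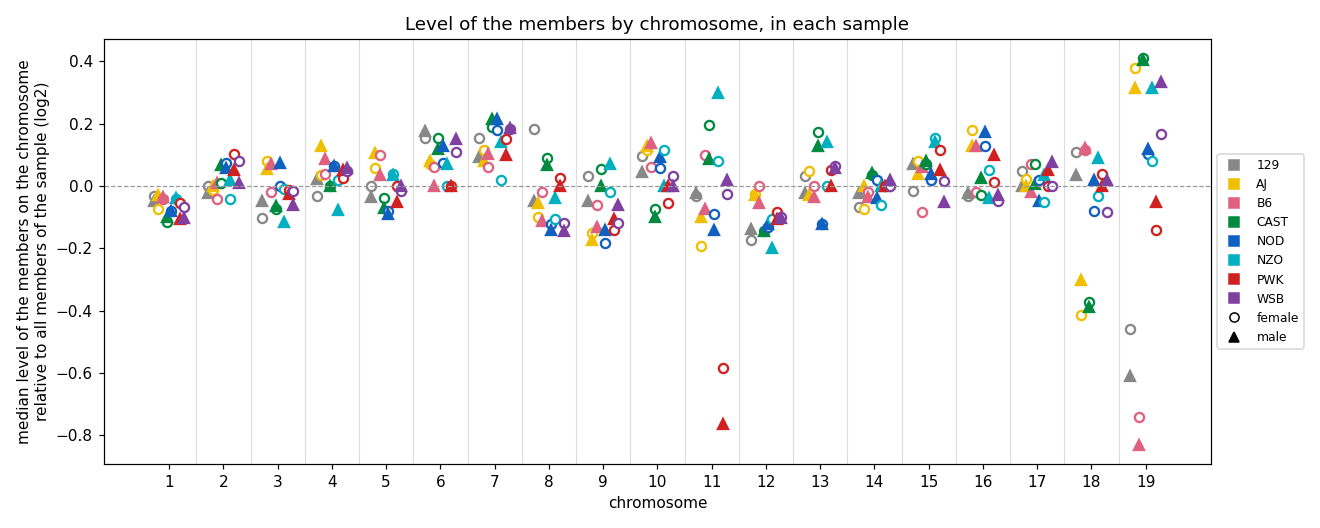
Median level of the intergenic regions on each autosome (x axis) relative to all intergenic regions of the same sample (log2, y axis), with 1 point for each of the 16 samples, coloured by strain and shaped by sex. On chromosome 19 the 129 and B6 samples lie at −0.46 to −0.83, below all others, and on chromosome 11 the PWK samples lie at −0.58 and −0.76.

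The number of intergenic regions per Mb also differed between chromosomes, from 1.57 on chromosome 11 and 1.66 on chromosome 19 to 4.61 on chromosome 3. The chromosomes with the strain shifts on 11 and 19 were thus those with the fewest regions for their length, and chromosome 18, at 3.51, was not.

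The highest scaled signals of all belonged to copies of other sequence. The region chr12:97061421-97061796 ran from 183 in the WSB female to 960 in the PWK male with a median of 380, and 365 of its bases are 99.7% identical to the mitochondrial genome. The region chr2:69355529-69355675 ran from 65.9 to 221 and matches the mitochondrial genome at 100% over 129 bases, and chr5:60042714-60043113, with 97.9% over 383 bases, ran from 56.8 to 212. These 3 had their highest scaled signal in the PWK male and their lowest in CAST or WSB. The PWK male also had the lowest median to divide by, 32.0, and the ranking rested on that division. At chr12:97061421-97061796 the undivided summit signal was highest in the PWK female (41941, against 30721 in the PWK male). It was highest in the AJ male at chr2:69355529-69355675 (10673, against 7072) and at chr5:60042714-60043113 (9548, against 6787), with the NZO male lowest in both (4954 and 4885). Per the methods of the study, reads assigned to the mitochondrial genome were removed, and the part of mitochondrial reads in these signals was not tested. In all, 7 intergenic regions matched the mitochondrial genome, and all 7 were called for strain. Gene-body regions and promoters were not searched for such matches, so there is no share to set beside this count.

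The second highest, chr12:3109860-3110127, ran from 127 to 486 and its window is marked as repeat over its whole length. The fifth, chr14:124799719-124802247, ran from 32.5 to 170. Repeated windows were rare, with 151 among the intergenic regions (1.85%), 51 among gene-body regions and 231 among promoters. Of the 155 that were repeated or matched the mitochondrial genome, 120 (77.4%) were called for strain, with a median range of strain means of 1.96 on the log2 scale. Calls were frequent in repeated windows of every kind. They were 116 of the 151 in intergenic regions, 35 of the 51 in gene-body regions, 138 of the 231 in promoters and 527 of the 790 in all shared regions. Without them, 3283 intergenic regions were called, so they carried few of the calls. The part of copy number in their differences was not tested.

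In sequence, intergenic regions were like gene-body regions and unlike promoters. The 200-base windows had a mean GC content of 46.5% (46.8% in gene-body regions, 61.0% in promoters) and a mean ratio of observed to expected CpG of 0.257 (0.243 and 0.661). Repeat-marked bases made up 15.3% of the intergenic regions on average, 13.2% of gene-body regions and 11.2% of promoters.

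The motifs were searched on both strands as letters, and a match is a description of the window and not a binding site. They were AP-1 (TGANTCA), forkhead (TGTTTAC), sites of GATA factors (AGATAA), homeobox (TAATTA), Nkx2-2 (CACTTNA), the E-box of Neurod1 (CAGATGG), a Maf site (TGCTGAC), ETS (CCGGAAG), the GC box of SP and KLF factors (GGGCGGG), the CCAAT box (CCAAT), an Rfx site (GTTGCCNNG), a nuclear receptor site (AGGTCA) and the CTCF core consensus. AP-1 and Maf letters can overlap in a window. The GC box was in 2.10% of intergenic windows, 33.8% of promoter windows and 13.1% of all shared windows, and ETS in 1.14%, 12.1% and 4.70%. AP-1 was in 14.8% of intergenic windows, 17.1% of gene-body windows, 6.36% of promoter windows and 12.7% of all. The CTCF core was in 8.99%, 6.44%, 2.56% and 6.38% of the same sets.

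Motifs of islet factors were likewise more frequent than in promoters, but about as frequent as in gene-body windows. Gene-body shares were 13.1% for Nkx2-2 letters, 8.34% for homeobox and 8.89% for forkhead. They were 11.0% for GATA, 9.97% for the Neurod1 E-box and 6.02% for the Maf site. Mean GC content was 46.5% in intergenic and 61.0% in promoter windows, and its part in these shares was not tested. Nkx2-2 letters were in 13.1% of intergenic and 5.90% of promoter windows (10.4% of all), homeobox in 8.38% and 2.24% (5.77% of all) and forkhead in 7.89% and 2.83% (6.27% of all). GATA letters were in 11.4% and 3.64% (8.38% of all), the Neurod1 E-box in 10.2% and 4.12% (7.84% of all) and the Maf site in 5.82% and 3.87% (5.22% of all). The other 3 differed less, with the nuclear receptor site in 13.4% and 8.88% (12.4% of all), the Rfx site in 6.15% and 5.53% (5.97% of all), and the CCAAT box in 23.9% and 31.8% (26.4% of all). Of these 9, the CCAAT box alone was more frequent in promoter windows.

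The share called for strain was set beside the CTCF and AP-1 letters, with no test of the differences. Of 735 intergenic regions with it, 209 (28.4%) were called, against 42.9% of the others, and in gene-body regions with it 23.9% were called. Of 1214 with AP-1, 46.8% were called, against 40.7% of those without, and in gene-body regions with it 48.3% were called. Other motifs had shares near that of AP-1, at 47.5% for the Rfx site, 46.0% for forkhead, 46.0% for the Maf site and 45.2% for ETS. The nuclear receptor site (44.3%) and the Neurod1 E-box (44.1%) came next. Shares were 41.6% for the CCAAT box, 41.2% for GATA, 40.7% for Nkx2-2, 38.4% for homeobox and 33.7% for the GC box. The median level of AP-1 regions relative to all intergenic regions was −0.15 (log2) in the 129 male, −0.14 in the 129 female and −0.11 in the AJ male, and it was highest in the WSB male at 0.57. The sexes were apart in AJ (0.26 and −0.11), B6 (0.04 and 0.43) and PWK (0.49 and 0.10), so this level did not follow strain alone. The level of CTCF regions ran from −0.20 in the PWK female to 0.21 in the 129 female. Regions with the GC box had the widest run of the 13 motifs, from −0.10 in the AJ male to 0.81 in the NZO male.

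A single region may serve as an example of both motifs. Near Vps41, a subunit of a vesicle tethering complex, chr13:18867802-18869057, whose window is printed above, ran from 2.40 to 6.55 with a median of 4.41, with CAST lowest (2.40 and 2.96) and WSB high (5.94 and 6.55). Its adjusted p-value for strain was 0.0505 in the limma F test, just outside the threshold.

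**Figure D5:**
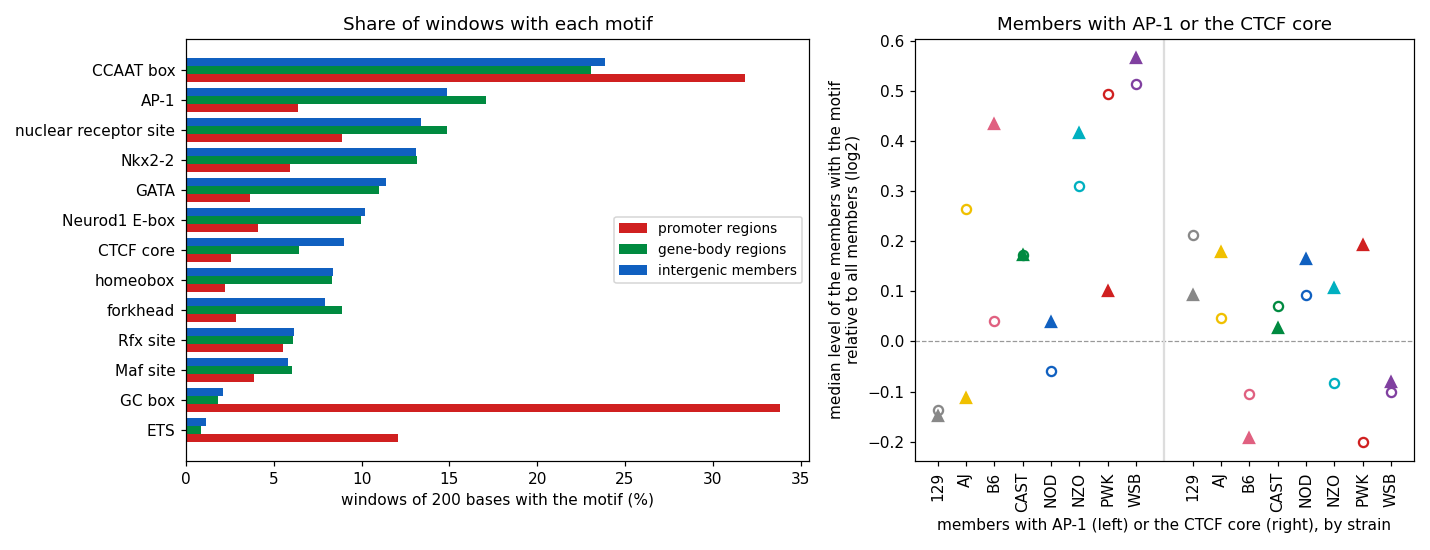
Left, percent of 200-base windows (x axis) that hold each of the 13 motifs (y axis) in intergenic regions, gene-body regions and promoters. Right, median level of intergenic regions with AP-1 or the CTCF core relative to all intergenic regions of the sample (log2, y axis), with 1 point for each sample by strain (open circles female, triangles male). The GC box and ETS letters are mostly in promoters, and AP-1 regions run from −0.15 in the 129 male to 0.57 in the WSB male.

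The distance to the nearest TSS had a median of 30.9 kb and reached 483 kb, and 56.4% of the regions lay upstream of their nearest protein-coding gene. The share called for strain was 39.4% in the 2427 regions at 10 to 20 kb, 41.5% in the 3218 at 20 to 50 kb, 43.6% in the 1623 at 50 to 100 kb and 44.7% in the 908 beyond 100 kb. The median range of strain means went from 1.15 to 1.20, 1.28 and 1.36 (log2) over the same bins. The share with a CTCF core went from 11.3% to 8.92%, 7.46% and 5.73%. The share called was thus highest and the share with a CTCF core lowest in the farthest bin, and no test of the trend was made. The farthest region, chr2:134067857-134068395, had 1.44 and 1.66 in PWK, 0.328 and 0.406 in 129 and from 0.457 to 1.23 in the others (limma F test, adjusted p = 0.00125).

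The study's strain lists give each peak an irreproducible discovery rate (IDR), which is low where its rank is alike in both sexes. Of the intergenic regions, 41.9% had a peak with an IDR of at most 0.05 in all 8 strains, against 39.4% of gene-body regions and 76.4% of promoters. By strain, the share was 95.2% in WSB, 92.5% in CAST, 86.1% in B6, 84.5% in NOD, 77.1% in PWK, 73.9% in AJ, 72.4% in 129 and 55.0% in NZO. The strain with the widest gap between its sexes had the fewest repeated peaks. The share fell from 46.2% at 10 to 20 kb from a TSS to 35.0% beyond 100 kb. Among regions repeated in all 8 strains, 37.6% were called for strain, and among the rest 44.5%. In 36 intergenic regions no strain had such a repeated peak. Some regions named above had one in part of the strains, with 2 strains near Megf9, 4 near Tmem68 and 5 near Cd47.

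The intergenic regions were nearest to 3428 protein-coding genes, of which 1724 had 1 region. Of the 15 beta cell genes in the marker list, 5 had intergenic regions nearest to them. These were 7 near Slc30a8, the zinc transporter of insulin granules, 3 near Nkx6-1, a homeobox factor of beta cell identity, 2 near Glis3, 2 near Ins1 and 1 near Ucn3. Of these 15 regions, 2 were called for strain (41.6% of all intergenic regions were), and their median range of strain means was 0.97 (log2). Of the 7 near Slc30a8, limma called 0, and 0 reached an unadjusted p-value under 0.05.

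The region 215 kb from Ins1, an insulin gene of rodents, was called. At chr19:52048250-52049008 the female and male values were 0.534 and 0.957 in 129, 1.54 and 2.00 in AJ, 0.976 and 0.831 in B6, 1.29 and 1.10 in CAST, 1.43 and 1.46 in NOD, 1.68 and 1.20 in NZO, 0.565 and 0.375 in PWK and 1.66 and 1.32 in WSB. PWK, 129 and B6 were low and AJ was high (limma F test, adjusted p = 0.00571, and 0.0437 with centring within chromosomes). The region lies on chromosome 19, where the 129 and B6 samples were low and the AJ samples high as a whole. Against the other 7 strains, PWK alone was called (log2 −1.36, limma, adjusted p = 0.00254). The region 87.0 kb from Nkx6-1, chr5:101576159-101578009, gave 0.200 and 0.345 in AJ, 0.393 and 0.325 in B6, 1.05 and 0.772 in CAST and 1.10 and 0.691 in NZO (limma F test, adjusted p = 0.0118). AJ and B6 were low there, and NZO and CAST were high.

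Of the 20 other endocrine genes, some of which also serve beta cells, 9 had 30 intergenic regions. Of these regions 13 (43.3%) were called for strain, near the 41.6% of all intergenic regions, and 11 with centring within chromosomes. The counts were 3 of 7 near Pcsk1, 2 of 3 near Pcsk2, 2 of 6 near Isl1, 3 of 5 near Irx2, 1 of 3 near Irx1, 2 of 3 near Chga and 0 of the 3 near Mnx1, Rfx6 and Sst, of which 1 had an unadjusted p-value under 0.05 in limma. The highest was near Pcsk1, the proinsulin-cleaving convertase, where chr13:75033374-75034598 ran from 5.18 to 12.4 with a median of 9.12 and was not called (adjusted p = 0.161, limma F test). Farther along, chr13:75162830-75164516 gave 2.37 and 2.57 in CAST, 1.79 and 1.94 in PWK and 0.431 and 0.681 in 129 (limma F test, adjusted p = 7.11e-04). Whether strains differed more in the second of these regions than in the first was not tested.

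The next highest near endocrine genes lay near Isl1, a LIM homeobox factor of endocrine cells, near Ucn3, a peptide hormone of mature beta cells, near Pcsk2, the convertase that makes glucagon, and near Slc30a8. The Isl1 region, chr13:116192896-116192989, ran from 1.41 to 9.66 with a median of 4.39 and 98.5% of its window is marked as repeat. The Ucn3 region, chr13:3981688-3983070, ran from 1.67 to 4.99, the Pcsk2 region, chr2:143424324-143425566, from 2.35 to 4.07, and the Slc30a8 region, chr15:52458145-52459380, whose window holds a CTCF core, from 1.87 to 3.93. The Isl1 region alone of these was called for strain (limma F test, adjusted p = 0.00363).

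Near 8 of 18 genes at type 2 diabetes loci there were 14 intergenic regions, of which 8 (57.1%) were called for strain, against 41.6% of all intergenic regions and 34.9% of all shared regions, and 7 with centring within chromosomes. With 14 regions, no more is read from this share. The 5 regions nearest to Bcl11a, a transcriptional repressor, lay 106 to 723 kb from it. Of these 5, 4 were called, and PWK was the lowest and AJ the highest strain in each of the 4. These lie on chromosome 11, where the PWK samples were low as a whole, and 3 of the 4 were called with centring within chromosomes. The remaining region of the 5, chr11:24865000-24866025, was called with that centring alone (limma F test, adjusted p = 0.00524, against 0.0648 without it). At chr11:24363577-24364342 AJ had 1.48 and 1.75, PWK 0.194 and 0.312, and the others from 0.327 to 0.667 (limma F test, adjusted p = 0.00183, and 0.00519 with that centring). Lists of other cells had few regions nearest to their genes, with 8 near Cdh5 of the endothelial list (2 called), 4 near leukocyte genes, 1 near the acinar factor Ptf1a and 1 near the duct factor Sox9 (0 of these 6 called by limma, 3 at an unadjusted p-value under 0.05). Distances ran from 50.2 to 580 kb for Cdh5 and from 70.5 to 458 kb for Ptprc (leukocyte). They were 22.2 kb for Adgre1 (leukocyte), 30.2 kb for Ptf1a and 779 kb for Sox9.

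Most intergenic regions stood alone. With a gap of up to 10 kb they formed 6843 clusters, of which 5812 were single regions and 9 held 6 or more. The widest, chr8:20641710-20705963, held 16 regions over 64.3 kb near Gm21119, and all 16 were called for strain and had repeated windows. Its median centred level was −0.01 in PWK and −2.68 in WSB. A second one, chr8:20048579-20073399, held 8 regions, all called and all repeated, with PWK highest at 0.41 and WSB lowest at −2.53. Clusters of unrepeated windows were less uniform, with 4 of 9 called near Gnaz, which codes for a G protein subunit (chr10:74920420-74953548), and 3 of 8 called at chr10:59265799-59296750. A repeated cluster of 7 near Pdia4, an endoplasmic reticulum chaperone, had 0 called in the limma F test and 4 at an unadjusted p-value under 0.05.

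The limits of the selection left out regions close to those kept. In 2044 regions that met every other part of the rule, 15 samples had a peak, and the sample without one was the NZO male in 596, the 129 female in 426, the AJ male in 313 and the PWK male in 232. The widest region kept measured 4979 bases and the narrowest of the 38 left out for width alone 5024. The nearest kept lay 10001 bases from a TSS, and the farthest of the 3931 left out for distance alone lay 9995 bases away.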

How the data were processed

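ATAC-seq libraries of islets from 8 strains and both sexes were analysed from 16 deposited sample lists and 8 deposited strain lists. Per the study's methods and processing notes, the authors trimmed reads with cutadapt 2.0, aligned them to mm10 with Bowtie2 2.3.4.1, filtered them with SAMtools and Picard 2.9.2 (duplicates, unmapped and mitochondrial reads), and called peaks in each sample with MOSAiCS (false discovery rate 0.05). Whether read ends were shifted for the transposase cut is not given in the sources used here. The deposited signal is a whole-number summit height with no scaling to depth, the deposited −log10 p-value is that of the peak, and the deposited score in the strain lists is a −log10 IDR. The deposited mean signal, whose averaging the files leave undefined, was an alternative only. Reads of all strains were placed on the B6 reference, and the part of strain sequence in the signals was not tested.

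Overlapping peaks were merged into 362076 regions with chromosome Y left out, and regions were placed against GENCODE M21. The highest summit in a region was a sample's value. The 42427 regions with peaks of all 16 samples were fitted with limma 3.58.1 in R 4.3.3 on log2(signal + 1), a signal scale with a pseudocount of 1 that understates changes of low regions, each sample centred on its median. The model held strain and sex, and classes were compared on 8 strain means. Adjusted p-values (Benjamini-Hochberg) under 0.05 over all shared regions were calls. The p-values of the fit of strain and sex measure the spread between the sexes of a strain beyond their average difference. The labels do not describe that spread further. The p-values of the class comparison measure the spread of the strain means within a class. The lists hold no read counts, so the count tests of the study were not run. The fits were first tested on simulated data.

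Windows of 200 bases around the median summit were read from RefSeq GRCm38, their 50-base words were looked up in the whole assembly, and matches to the mitochondrial genome came from BLAST 2.17.0 (E-value at most 1e-05). Regions were named by fixed rules: the 5 highest, the 10 with the smallest strain p-value, all called for class, the 5 with the smallest SD, the smallest p-value for each strain in each direction, the 5 highest near endocrine genes and the farthest. The regions, lists and rules were chosen with earlier results of these data known. Some regions and 1 marker gene that these rules name are not reported here. Alternatives were other definitions of the regions, other centrings, quantile normalization, a pseudocount of 10, the mean signal, regions in at least 12 samples, no sex term, a filter on the lowest 10% and each sample left out. Chromosome X was used in the fits alone.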

Additional observations from a re-analysis of the deposited data

How the results depend on the processing

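The number of intergenic regions was 2531 with a distance over 50 kb and 1982 with peaks of a −log10 p-value of at least 10. Calls for strain fell to 1370 when regions in at least 12 samples were fitted, where a missing peak counts as 0 and more regions are tested, and they ran from 1767 to 5422 when 1 sample was left out. Calls for strain class, 2 higher and 1 lower in wild-derived strains, were 8 and 8 with no centring, 1 higher with centring on the intergenic regions, 1 higher and 2 lower with the mean signal, 2 lower with log2(signal + 10), 3 lower with centring within chromosomes, 0 and 0 with regions in at least 12 samples, and ran from 0 to 2 in each direction when 1 sample was left out. Calls for sex were 0 in both directions, in limma, under every alternative run, samples left out included. With no centring, calls against the other 7 strains were 2 higher and 25 lower in 129, 16 and 295 in AJ, 12 and 2 in B6, 2912 and 257 in CAST, 20 and 7 in NOD, 9 and 9 in NZO, 40 and 3940 in PWK and 57 lower in WSB. Centring on the intergenic regions gave 174 higher in AJ, 87 higher in NOD and 187 lower in NZO, and centring within chromosomes gave 105 higher and 51 lower in B6. Centring in bins of GC content, added after the values were seen, as were all of the next, gave 149 higher in 129 and 220 higher in NOD, and log2(signal + 10) gave 221 higher in NOD. Regions in at least 12 samples gave 41 higher and 85 lower in 129, 255 higher in AJ, 70 and 49 in B6, 290 higher in CAST, 79 and 53 in NOD, 80 and 117 in NZO, 339 higher in PWK and 57 and 166 in WSB, whereas quantile normalization, no sex term and the filter on the lowest 10% moved no count of these contrasts by over 1.5 times. The mean signal gave 34 higher and 97 lower in 129, 148 and 86 in AJ, 89 and 39 in B6, 995 lower in CAST, 34 and 31 in NOD and 127 higher in NZO. With 1 sample left out, the higher and the lower calls ran from 1 to 215 and from 0 to 533 in 129, from 3 to 1694 and from 8 to 405 in AJ, from 5 to 675 and from 11 to 227 in B6, from 67 to 730 and from 500 to 2138 in CAST, from 1 to 759 and from 4 to 230 in NOD, from 24 to 500 and from 6 to 1942 in NZO, from 204 to 843 and from 238 to 839 in PWK, and from 5 to 358 and from 45 to 591 in WSB. The low ends came without a sample of the strain itself, which was then represented by 1 sample assumed to vary like the others, and the high ends without an NZO sample. Beyond that, the cause was not tested. Of the recomputed values of the named regions, 737 kept their direction and their side of the threshold, 16 kept the direction alone and 0 turned, and 14 of the 16 were class differences. No paired analysis was possible because the labels number no replicates, and sex, the one label the samples of all strains share, was a term of the fit. The lists give no read totals of single samples, so what depth limits was not measured here.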

Other observations

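Of 18 groups of 4 to 10 samples that were examined for a sample far from the rest, 0 met Dixon's limit, where chance gives about 1 in 20. The genes with the most intergenic regions nearest to them were Adgrl2, an adhesion receptor of neurons, with 25 (10 called for strain), Gm21119 and Pik3c3, the class III phosphatidylinositol kinase of autophagy, with 21 each (21 and 13 called), and Zpld1 with 19 (7 called). Acvr2a, a receptor for activins, Pcdh20 and Tbl1xr1 had 18 each, with 8, 6 and 6 called. All 21 regions near Gm21119 were thus called, and 16 of them were the repeated cluster on chromosome 8.

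Of the remaining clusters of 6 regions, 3 of 6 were called for strain near Ezh2, the histone methyltransferase, all of them with repeated windows, 3 of 6 near Znhit6 and Ccn1, 2 of 6 near Ghitm and 2 of 6 near Cacna1a, a calcium channel subunit. Near Mtnr1b, a melatonin receptor at a type 2 diabetes locus, chr9:15802538-15803239 had scaled signals of 0.0952 and 0.169 in CAST, 0.210 and 0.281 in PWK and from 0.200 to 0.892 in the other strains. The AJ female, at 0.892, and the AJ male, at 0.200, were the highest and the lowest of the other samples there.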
